A study of Mus musculus with 15 samples.

Results

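The genes described here are 8 genes of polyamine metabolism, taken from the table by symbol: Odc1, Amd1, Srm, Sms, Sat1, Azin1, Oaz1 and Oaz2. They are 8 of the 55416 Ensembl mouse gene identifiers in the count table, and all 8 passed the filter on low counts that left 18244 genes for testing. Each was followed through 15 RNA sequencing libraries of hippocampal neural precursor cells, which are dividing cells taken from the hippocampus of 6 week old female mice and grown as an attached layer. The cells were held as 3 stable lines made with the piggyBac transposon, with 5 libraries per line. The Atf3 line carried the coding sequence of the stress-responsive transcription factor Atf3, and the Atf4 line that of the related factor Atf4. In both, the sequence lay behind TRE3G, a promoter that is switched on by the Tet-ON 3G transactivator in the presence of doxycycline. The control line carried the same transactivator and puromycin resistance cassette without an Atf sequence. In every line removal of EGF and FGF started differentiation, doxycycline was given at 100 ng/ml, and RNA was taken after 10 h, so the control line also met the drug and the transactivator. There was 1 line per construct, so an effect of the transgene and a difference between the lines cannot be told apart. The labels do not say that the 5 libraries of a line came from separate cultures, so p-values measure only the spread between these libraries, which may be technical.

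Polyamines (putrescine, spermidine and spermine) are small positively charged molecules that bind RNA and DNA and are needed for growth and protein synthesis. Ornithine decarboxylase, encoded by Odc1, makes putrescine, and spermidine synthase (Srm) and spermine synthase (Sms) each add an aminopropyl group that S-adenosylmethionine decarboxylase (Amd1) supplies. Sat1 acetylates spermidine and spermine so that they can be broken down or exported. Antizymes (Oaz1, Oaz2) bind ornithine decarboxylase, send it to the proteasome and lower polyamine uptake, and the antizyme inhibitor (Azin1), an inactive relative of ornithine decarboxylase, takes the antizymes away from it.

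Library totals ran from 53.7 to 69.6 M counts, and the 8 genes had between 967 and 31679 counts per library, so their values rest on many reads. Levels are given in CPM, the counts of a gene divided by the library total in M after scaling by TMM, a correction for differences in RNA composition. Mean Atf3 was 5.02, 1942 and 1.40 CPM in control, Atf3 and Atf4 libraries. The control mean was carried by replicates 4 and 5, since control replicates 1 to 5 held 1.67, 3.03, 1.85, 11.0 and 7.55 CPM of Atf3. Mean Atf4 was 83.2, 250 and 153 CPM in control, Atf3 and Atf4 libraries. Its level in the Atf4 line was 1.84-fold that of the control line, and below that of the Atf3 line. By RNA, a comparison of the Atf4 line with the Atf3 line is thus not one of more Atf4 with less. These counts do not separate RNA of the transgene from that of the native gene, and they do not measure the protein. All 6 precursor markers (Sox2, Nes, Pax6, Fabp7, Vim and Sox9) were at 1 CPM or more in each line, with sums of 3094 to 3320 CPM in control, 3735 to 3827 in Atf3 and 3445 to 3522 in Atf4 libraries. The 4 neuronal markers (Tubb3, Dcx, Rbfox3 and Snap25) summed to 85.0 to 89.6 CPM in control, 14.9 to 19.1 in Atf3 and 33.2 to 53.8 in Atf4 libraries, and the 3 astrocyte markers to 132 to 157, 61.6 to 69.3 and 66.1 to 85.7 CPM. The 4 oligodendrocyte lineage markers summed to 1368 to 1605, 1098 to 1407 and 1094 to 1260 CPM. Sums of microglial markers stayed at or below 1.32 CPM, of endothelial markers at or below 0.386 CPM and of mural cell and fibroblast markers at or below 0.932 CPM, with Cldn5 and Pdgfrb at 0 in the Atf3 line. Neuronal and astrocyte markers thus moved with the lines, and their part in the results below was not tested. In such bulk samples, fewer cells of a type and less RNA per cell cannot be told apart.

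The 4 genes of synthesis and Azin1 were higher in Atf3 than in control libraries, by 1.54-fold (Odc1) to 6.42-fold (Srm), and Sat1 was lower. The same 6 genes moved the same way, by less, in the Atf4 line, where folds over control ran from 1.43 (Odc1) to 3.94 (Srm). In the main fit (TMM scaling, all 15 libraries, low counts filtered, copies counted apart), the antizymes Oaz1 and Oaz2 differed by at most 0.12 on the log2 scale in either comparison. In the Atf3 line Oaz1 differed by 0.15 with the counts of its pseudogene added, and Oaz2 by -0.22 with plain library totals. The comparisons of the Atf3 and Atf4 lines with control share the 5 control libraries, so the values of each are given side by side. In the Atf3 line against control, 6 of 8 genes were called higher and 2 lower at an adjusted p under 0.05 (edgeR quasi-likelihood test, Benjamini-Hochberg adjustment over all 18244 genes), where 73.1% of all genes tested were called, 36.8% higher and 36.3% lower. With so many genes called, having a call sets none of the 8 apart, and the sizes below carry the description. Ranked by absolute log2 fold change in the Atf3 line, Srm stood at percentile 98.6 of all genes tested. Sms was at 84.2, Amd1 at 82.3, Azin1 at 79.2, Odc1 at 66.1, Sat1 at 44.5, Oaz1 at 15.1 and Oaz2 at 10.6. In the Atf4 line Odc1 was at 72.3 and Sat1 at 43.8. The change of Sat1 was thus smaller than that of most genes tested in both lines. The libraries of the Atf3 and control lines did not overlap for 6 of 8 genes, 5 higher and 1 lower, against 60.7% of all genes tested, 32% higher and 28.7% lower. In the Atf4 line against control, 5 were called higher, 1 lower and 2 were not called, where 61.4% of all genes tested were called, 31.8% higher and 29.6% lower. Libraries did not overlap for 6 genes, 5 higher and 1 lower, against 47.9% of all genes tested, 26.1% higher and 21.8% lower. The median log2 fold change of the 8 genes was 0.76 for Atf3 and 0.52 for Atf4 against control, and that of all genes tested was -0.02 and -0.0008.

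**Figure D1:**
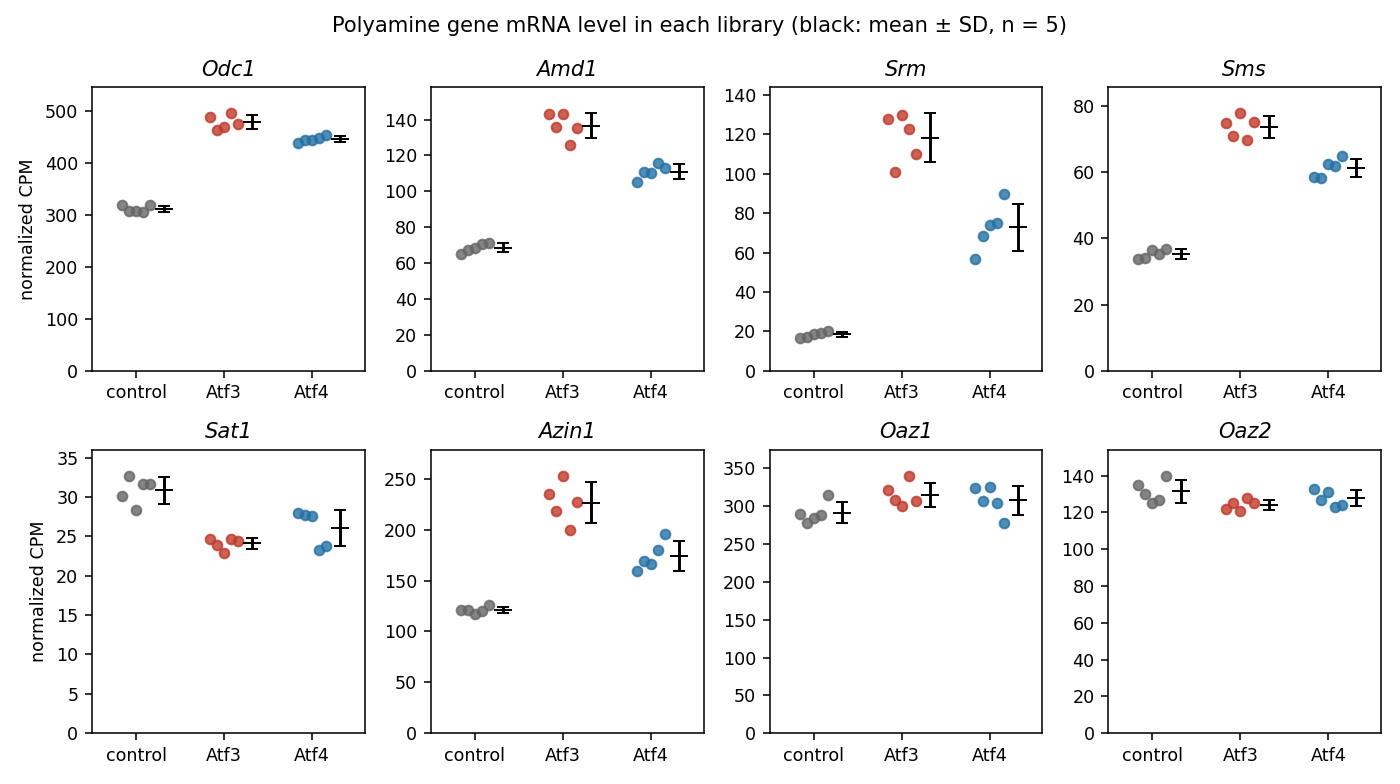
Normalized CPM (vertical axes, from 0) of the 8 genes in each of the 15 libraries, by line; points are libraries and black bars the mean ± SD of 5. For Odc1, Amd1, Srm, Sms and Azin1 all 5 Atf3 and all 5 Atf4 libraries lie above all 5 control libraries, for Sat1 all lie below, and for Oaz1 and Oaz2 the lines overlap.

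Odc1, whose product carries out the first step of the pathway, was the most abundant of the 4 synthesis genes. The gene lies on the plus strand at chr12:17544794-17551505 (GRCm38, the assembly that mm10 also names). It stood at 318, 307, 307, 305 and 318 CPM in control replicates 1 to 5, at 488, 464, 470, 496 and 475 CPM in Atf3 replicates and at 439, 445, 444, 448 and 453 CPM in Atf4 replicates. The 3 lines did not overlap, with every control library lowest and every Atf3 library highest. Odc1 was 0.62 ± 0.03 (SE) higher on the log2 scale in the Atf3 line, a 1.54-fold difference with an edgeR adjusted p of 1.5e-13, and 0.52 ± 0.03 higher in the Atf4 line, a 1.43-fold difference with an edgeR adjusted p of 5.9e-12. The Atf4 line lay 0.10 ± 0.03 below the Atf3 line (log2 fold change -0.10, edgeR adjusted p = 0.00645), a difference that was -0.038 with adjusted p = 0.284 under upper-quartile scaling and had adjusted p = 0.996 with plain library totals. Its spread within a line was small, with a coefficient of variation of 2.11% in control, 2.73% in Atf3 and 1.15% in Atf4 libraries.

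Amd1 encodes the decarboxylase that commits S-adenosylmethionine to polyamine synthesis, and lies on the minus strand at chr10:40287458-40302186. Control replicates 1 to 5 held 64.9, 67.5, 68.5, 70.8 and 71.0 CPM. Atf3 replicates held 143, 136, 143, 126 and 135 CPM, and Atf4 replicates 105, 111, 110, 116 and 113 CPM. Here too the 3 lines did not overlap, and the Atf4 line lay between the others. Amd1 was 1.99-fold higher in the Atf3 line (log2 fold change 0.99 ± 0.04 SE, edgeR adjusted p = 2.5e-14) and 1.62-fold higher in the Atf4 line (0.69 ± 0.04, adjusted p = 1.1e-11). The Atf4 line lay below the Atf3 line, with a log2 fold change of -0.30 ± 0.04 and an edgeR adjusted p of 5.8e-06.

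The Amd1 value is shared in part with near-identical copies, since reads from them may be split between the loci and how reads matching several places were counted is not given in the sources used here. Annotated copies with at least 90% identity over 300 aligned bases together held 37.4% as many counts as Amd1. The gene Amd2, 99.6% identical over 3202 bases, held 20.2%, and the pseudogenes Amd-ps3 and Amd-ps4 held 8.95% and 8.17%. The coding sequences of Amd1 and Amd2 differ at 1 of 1002 bases. The stretch of 60 coding bases around it is given from GRCm38 for both genes and Amd-ps4, all on the minus strand, with the base at that place in capitals. It holds the only coding base at which Amd1 and Amd2 differ. Differences outside the coding sequence, and Amd-ps3, are not shown. Positions are counted from 1 at the first base of the Amd1 start codon, and the stretch covers 766 to 825. Against Amd1, Amd2 has the substitution G796C and Amd-ps4 has G796A. Amd1 lies at chr10:40290157-40290216, Amd2 at chr10:35710735-35710794 and Amd-ps4 at chr4:51253205-51253264.
Amd1: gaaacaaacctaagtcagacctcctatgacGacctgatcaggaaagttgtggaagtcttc
Amd2: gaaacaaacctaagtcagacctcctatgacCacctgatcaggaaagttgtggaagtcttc
Amd-ps4: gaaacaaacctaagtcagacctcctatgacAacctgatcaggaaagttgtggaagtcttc
The rest of the stretch is the same in all 3, so only reads that cover the marked base carry a difference here. Amd2 itself stood at 13.6 CPM in control, 27.3 in Atf3 and 22.7 in Atf4 libraries (means, n = 5), a log2 fold change of 1.01 ± 0.06 in the Atf3 line (edgeR adjusted p = 4.0e-12) and 0.74 ± 0.06 in the Atf4 line (adjusted p = 1.0e-09). With the counts of all copies added to Amd1, its log2 fold change was 1.02 in the Atf3 line, 0.69 in the Atf4 line and -0.33 between them. The change was thus of the same size whether the copies were counted apart or together.

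Srm, which joins an aminopropyl group to putrescine to make spermidine, changed more than any other of the 8 genes. It lies on the plus strand at chr4:148591503-148594993. Its level was 16.8, 17.3, 18.8, 19.3 and 20.1 CPM in control replicates 1 to 5, and 128, 101, 130, 123 and 110 CPM in Atf3 replicates. Atf4 replicates held 56.9, 68.4, 74.0, 75.2 and 89.6 CPM. No library of one line reached into the range of another, and the Atf4 line spread most, with a coefficient of variation of 16.3% against 7.44% in control and 10.8% in Atf3 libraries. Against control, Srm was 6.42-fold higher in the Atf3 line (log2 fold change 2.68 ± 0.11 SE, edgeR adjusted p = 1.5e-11). That placed it at percentile 99.5 of the changes of all genes tested, ranked with their sign. Atf4 libraries held 3.94-fold more than control (1.98 ± 0.11, edgeR adjusted p = 9.5e-10). Between the Atf lines the log2 fold change was -0.70 ± 0.10, lower in the Atf4 line (edgeR adjusted p = 8.9e-05). Without Atf4 replicate 5, the highest of its line, the values were 1.88 against control and -0.78 against the Atf3 line.

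Sms makes spermine from spermidine and lies on the minus strand at chrX:157443855-157492287. It stood at 33.7, 34.1, 36.6, 35.3 and 36.9 CPM in control replicates 1 to 5, at 75.0, 70.9, 77.9, 69.6 and 75.3 CPM in Atf3 replicates and at 58.6, 58.3, 62.5, 62.0 and 64.9 CPM in Atf4 replicates. As for the other 3 synthesis genes, control libraries were lowest, Atf4 libraries came next and Atf3 libraries were highest, without overlap. Its log2 fold change was 1.06 ± 0.04 in the Atf3 line (2.09-fold, edgeR adjusted p = 2.1e-14) and 0.79 ± 0.04 in the Atf4 line (1.73-fold, edgeR adjusted p = 3.1e-12). The Atf4 line was lower than the Atf3 line by a log2 fold change of -0.27 ± 0.04 (edgeR adjusted p = 3.2e-05). A processed pseudogene, Sms-ps, held 8.30% as many counts as Sms and rose with it (1.07 ± 0.09 for Atf3 and 0.90 ± 0.09 for Atf4 against control, edgeR adjusted p = 8.0e-10 and 2.5e-08), so reads of the 2 loci may be mixed.

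Sat1, the acetyltransferase that starts polyamine catabolism and export, was the gene of the 8 that was lower in both lines with no overlap with control. It lies on the minus strand at chrX:155213132-155216449. Control replicates 1 to 5 held 30.1, 32.7, 28.3, 31.6 and 31.6 CPM. Atf3 replicates held 24.7, 23.9, 22.9, 24.6 and 24.4 CPM, and Atf4 replicates 27.9, 27.7, 27.6, 23.2 and 23.8 CPM. Every Atf3 and Atf4 library lay below the lowest control library, and Atf4 replicates 4 and 5 lay within the range of the Atf3 line. Sat1 fell by 0.36 ± 0.06 (SE) on the log2 scale in the Atf3 line (edgeR adjusted p = 8.6e-06) and by 0.24 ± 0.06 in the Atf4 line (edgeR adjusted p = 7.0e-04). The Atf lines themselves were not called different (log2 fold change 0.11 ± 0.06, edgeR adjusted p = 0.115). That difference was called without Atf4 replicate 4 (0.15, adjusted p = 0.0281) and without Atf4 replicate 5 (0.15, adjusted p = 0.0329). It was also called under upper-quartile scaling (0.18, adjusted p = 0.0188), with plain totals (0.21, adjusted p = 0.00438) and with a filter at 1 CPM (0.14, adjusted p = 0.0408).

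Azin1, whose product keeps antizymes from ornithine decarboxylase, moved with the synthesis genes. It lies on the minus strand at chr15:38487427-38519266, and 5.72% of its exon bases are shared with the antisense gene Gm49077, whose reads cannot be told apart from its own in libraries that do not mark strand. Gm49077 held 0.193% as many counts as Azin1. Levels were 121, 121, 117, 120 and 126 CPM in control replicates 1 to 5, 235, 218, 253, 200 and 227 CPM in Atf3 replicates and 159, 169, 166, 180 and 196 CPM in Atf4 replicates. The lines did not overlap, although Atf4 replicate 5 (196 CPM) and Atf3 replicate 4 (200 CPM) came close. Azin1 was 1.87-fold higher in the Atf3 line (log2 fold change 0.90 ± 0.06 SE, edgeR adjusted p = 3.8e-11) and 1.44-fold higher in the Atf4 line (0.52 ± 0.06, edgeR adjusted p = 1.8e-07). Between the Atf lines its log2 fold change was -0.38 ± 0.06 (edgeR adjusted p = 3.1e-05), and -0.42 without Atf4 replicate 5.

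The antizymes are known for a control step after transcription. Their messages hold a stop codon inside the reading frame, and the ribosome must slip by a single base there to make the full protein, which it does more often when polyamines are plentiful. RNA counts do not report on that step. The 54 bases around it are shown for both genes from GRCm38, plus strand, because the shared letters mark the site that makes antizyme output differ from antizyme RNA. Capitals mark the last codon before the stop together with the stop codon. The Oaz1 stretch lies at chr10:80828268-80828321 and the Oaz2 stretch at chr9:65686245-65686298, both in coding exons.
Oaz1: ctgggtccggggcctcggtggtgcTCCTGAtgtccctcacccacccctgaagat
Oaz2: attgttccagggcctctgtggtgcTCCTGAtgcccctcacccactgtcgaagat
Both antizymes carry the same capitals.

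Oaz1, the antizyme that most tissues express at a high level, lies on the plus strand at chr10:80826656-80829290. Its level was 290, 278, 284, 288 and 314 CPM in control replicates 1 to 5, 321, 308, 300, 340 and 306 CPM in Atf3 replicates and 324, 306, 325, 304 and 277 CPM in Atf4 replicates. The lines overlapped throughout, with control replicate 5 above 3 Atf3 libraries and Atf4 replicate 5 below every control library. The log2 fold change in the Atf3 line was 0.12 ± 0.05 SE (edgeR adjusted p = 0.0275), and its sign turned with the scaling, to -0.004 under upper-quartile scaling and -0.022 with plain totals. The call was also lost with a filter at 1 CPM (0.041, adjusted p = 0.408), and without control replicate 1, 2, 3 or 4, Atf3 replicate 4, or Atf4 replicate 2, 3 or 4, each left out alone (edgeR adjusted p of 0.0629 to 0.124). In the Atf4 line the log2 fold change was 0.08 ± 0.05, with a 95% interval of -0.02 to 0.17 (edgeR adjusted p = 0.138). Without Atf4 replicate 5 it was 0.10 with adjusted p = 0.0401, and with no filter on low counts 0.10 with adjusted p = 0.0498. A pseudogene, Oaz1-ps, 99.3% identical over 685 bases, held 14.7% as many counts and was 0.36 ± 0.10 higher on the log2 scale in the Atf3 line (edgeR adjusted p = 0.00298). With its counts added, the log2 fold change of Oaz1 was 0.15 in the Atf3 line (edgeR adjusted p = 0.0113) and 0.09 in the Atf4 line (adjusted p = 0.13). Without control replicates 4 and 5 together, the value of Oaz1 in the Atf3 line was 0.14 (edgeR adjusted p = 0.0235).

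Oaz2, a second antizyme, lies on the plus strand at chr9:65668001-65690300. It stood at 135, 130, 125, 127 and 140 CPM in control replicates 1 to 5, at 122, 125, 121, 128 and 125 CPM in Atf3 replicates and at 133, 127, 131, 123 and 124 CPM in Atf4 replicates. All 3 lines overlapped, with control replicate 5 the highest library and Atf3 replicate 3 the lowest. The log2 fold change was -0.08 ± 0.04 SE in the Atf3 line (edgeR adjusted p = 0.0481) and -0.04 ± 0.04 in the Atf4 line, with a 95% interval of -0.11 to 0.03 (edgeR adjusted p = 0.32). With plain totals the value in the Atf3 line was larger (-0.22, adjusted p = 9.9e-06). The call in the Atf3 line ended in 11 of 27 alternatives, among them leaving out control replicate 1 or 5 or Atf3 replicate 1, 2, 3 or 5 alone (edgeR adjusted p of 0.0574 to 0.122) and adding the counts of its pseudogenes (adjusted p = 0.0524). In the Atf4 line it was called lower under upper-quartile scaling (-0.10, adjusted p = 0.0227) and with a filter at 1 CPM (-0.084, adjusted p = 0.0326).

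Between the Atf lines, no gene of the 8 was called higher in the Atf4 line and 5 were called lower (Odc1, Amd1, Srm, Sms and Azin1), where 43.3% of all genes tested were called, 19.5% higher and 23.8% lower. For the same 5 genes the libraries of the Atf lines did not overlap, against 25.8% of all genes tested, 9.52% higher and 16.3% lower. The median log2 fold change of the 8 was -0.19 and that of all genes tested 0.007. Sat1, Oaz1 and Oaz2 were not called, with log2 fold changes of 0.11, -0.04 and 0.04. Oaz2 was called higher in the Atf4 line under upper-quartile scaling (0.10, adjusted p = 0.0255) and with plain totals (0.14, adjusted p = 0.00257). This comparison depends on how libraries are scaled. Plain library totals moved the median of all genes from 0.007 to 0.109, and of the genes called the share that was higher in the Atf4 line from 45% to 72.3% (62.7% under upper-quartile scaling). In the Atf3 line against control, the median moved from -0.017 to -0.155 and the share called higher from 50.4% to 38.4% (40% under upper-quartile scaling, where the median was -0.138). Amd1, Srm, Sms and Azin1 were called lower in Atf4 than in Atf3 libraries under every scaling tried, with log2 fold changes between -0.78 (Srm) and -0.17 (Sms) over all alternatives.

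**Figure D2:**
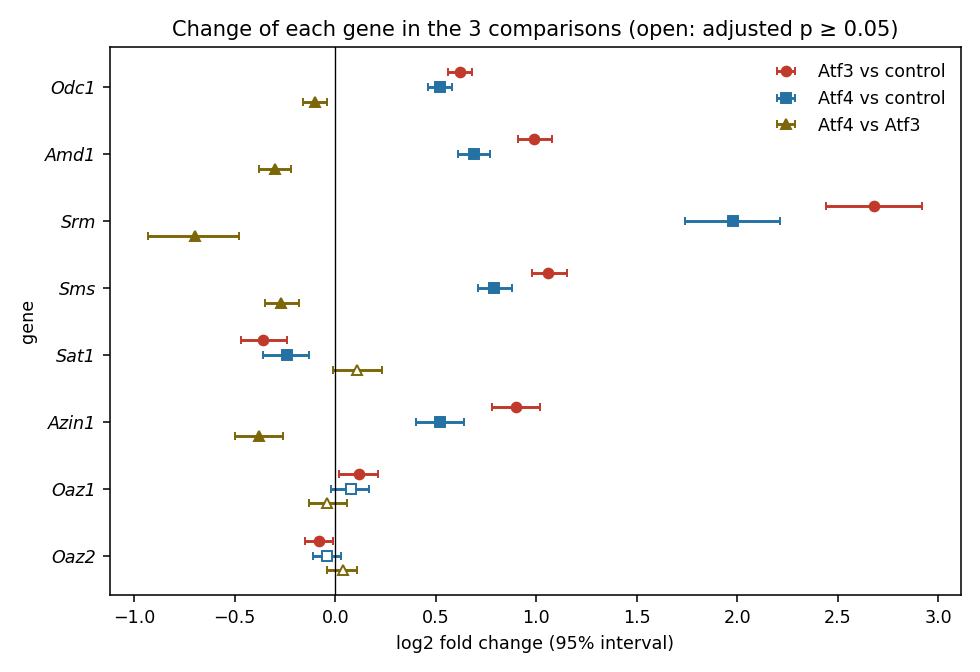
Log2 fold change (horizontal axis) with its 95% interval for each of the 8 genes in the 3 comparisons; filled symbols mark an adjusted p under 0.05. Srm stands farthest from 0 at 2.68 for Atf3 and 1.98 for Atf4, while Oaz1 (0.12 and 0.08, with the sign of the Atf3 value turning under upper-quartile scaling and plain totals) and Oaz2 (-0.08 and -0.04, the Atf3 value -0.22 with plain totals) lie near 0.

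Levels of different genes were compared per kilobase of merged exon length. In the control line Oaz1 was highest at 114 CPM per kb, followed by Odc1 at 91.3, Oaz2 at 43.9, Amd1 and Azin1 at 19.4 each, Srm at 11.5, Sat1 at 11.1 and Sms at 5.88 (means, n = 5). Amd1 and Azin1 overlapped in their libraries, as did Srm and Sat1, and other neighbours in that order did not. In the Atf3 line the order was Odc1 at 140 CPM per kb, Oaz1 at 123, Srm at 74.1, Oaz2 at 41.6, Amd1 at 38.5, Azin1 at 36.2, Sms at 12.3 and Sat1 at 8.70, and only Amd1 and Azin1 overlapped. By this length Srm moved from the sixth place to the third, and Sat1 to the last. In the Atf4 line Odc1 stood at 131, Oaz1 at 120, Srm at 45.5, Oaz2 at 42.7, Amd1 at 31.3, Azin1 at 27.8, Sms at 10.2 and Sat1 at 9.39 CPM per kb, with overlap between Srm and Oaz2, between Amd1 and Azin1 and between Sms and Sat1. Several of these places rest on the length used. Per kilobase of the longest coding transcript Oaz1 led in all 3 lines, at 271, 294 and 287 CPM per kb against 141, 217 and 202 for Odc1 in the control, Atf3 and Atf4 lines. By that length Srm went from the seventh place in control to the third in Atf3 and the fourth in Atf4 libraries, and Sms, not Sat1, was last in all 3 lines.

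Ratios of these per-length levels within a library describe the balance between genes whose products act on each other. The ratio of Odc1 to the sum of Oaz1 and Oaz2 was 0.590, 0.593, 0.589, 0.577 and 0.552 in control replicates 1 to 5, 0.860, 0.840, 0.874, 0.828 and 0.865 in Atf3 replicates and 0.754, 0.806, 0.763, 0.822 and 0.888 in Atf4 replicates. Both Atf lines lay above control without overlap, at 1.47 and 1.39 times the control mean of 0.580 ± 0.0169 (SD, n = 5). The Atf lines overlapped each other, since Atf4 replicate 5 was the highest of all 15 libraries. The ratio of Srm to Sms was 1.96 ± 0.0844 in control, 6.04 ± 0.594 in Atf3 and 4.45 ± 0.551 in Atf4 libraries (SD, n = 5), 3.08 and 2.27 times control. Libraries ran from 1.87 to 2.06, from 5.34 to 6.66 and from 3.64 to 5.19, so that the 3 lines did not overlap. Message for the enzyme that makes spermidine, relative to message for the one that uses it, was thus higher in every Atf library than in any control library. The ratio of Azin1 to the sum of the antizymes was 0.123 ± 0.00299 in control, 0.221 ± 0.0265 in Atf3 and 0.172 ± 0.0240 in Atf4 libraries (SD, n = 5), and that of Amd1 to Odc1 was 0.212 ± 0.00980, 0.274 ± 0.0184 and 0.239 ± 0.00693. Since a ratio within a library does not use the library total, these values do not change with the scaling. No test was run on them.

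**Figure D3:**
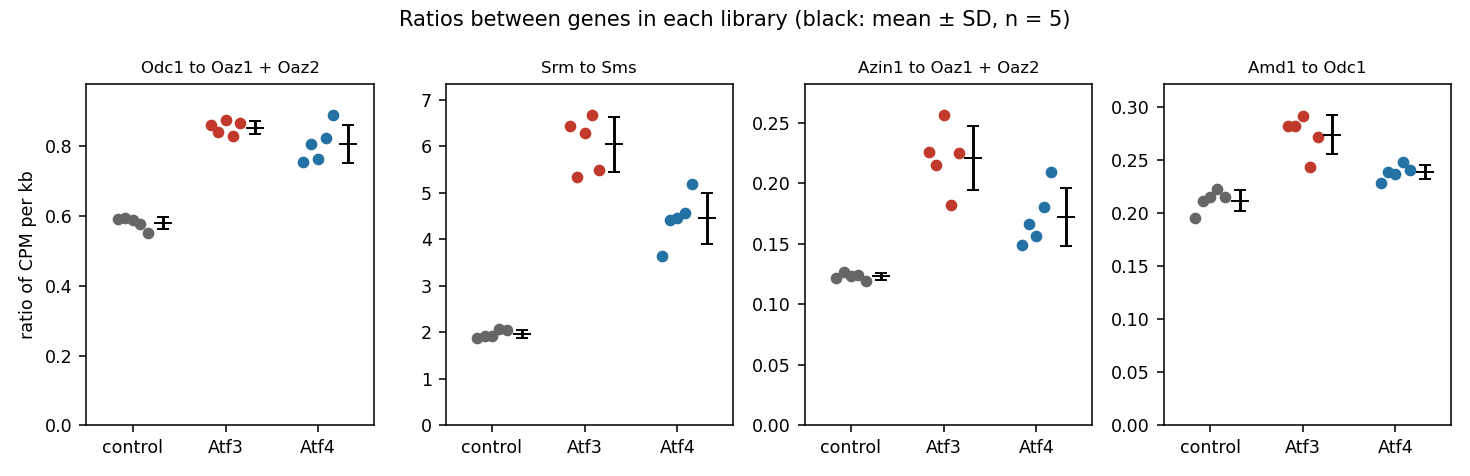
Ratio of levels per kilobase of merged exons (vertical axes, from 0) in each of the 15 libraries, by line, with the mean ± SD of 5 in black. Ratios of Odc1 to antizymes are 0.552 to 0.593 in control, 0.828 to 0.874 in Atf3 and 0.754 to 0.888 in Atf4 libraries. Those of Srm to Sms are 1.87 to 2.06 in control, 5.34 to 6.66 in Atf3 and 3.64 to 5.19 in Atf4 libraries.

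The 8 genes were also set beside 32 other genes of the pathway and its surroundings, of which 28 passed the filter. In the Atf3 line 16 of the 28 were called higher, 5 lower and 7 were not called, and in the Atf4 line 14, 5 and 9. Of all genes tested 73.1% (Atf3) and 61.4% (Atf4) were called, so the counts of calls in either direction lie near that background. By direction, 36.8% of all genes tested were called higher and 36.3% lower in the Atf3 line, and 31.8% and 29.6% in the Atf4 line. The 28 genes were thus called higher more often, and lower less often, than all genes tested. The lists were chosen with earlier results of these data known. Median log2 fold changes of the 28 were 0.38 and 0.17. Satl1, Arg1, Agmat and Mat1a were too low to be tested.

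Of 6 tested genes for other polyamine enzymes and regulators, 1 was called higher in each Atf line and 3 (Atf3) and 2 (Atf4) were called lower, where 73.1% and 61.4% of all genes tested were called in either direction. Amd2 was the higher gene. Smox, which oxidises spermine back to spermidine, fell from a mean of 163 CPM in control to 125 in the Atf3 line (log2 fold change -0.39, edgeR adjusted p = 0.0013) and 127 in the Atf4 line (-0.37, adjusted p = 0.00254). Sat2, an acetyltransferase related to Sat1, fell from 16.5 to 10.1 and 12.4 CPM (-0.71 and -0.41, edgeR adjusted p = 2.3e-08 and 4.3e-05). Paox, the oxidase that acts on acetylated polyamines, was lower in the Atf3 line (-0.15, edgeR adjusted p = 0.00829, and 0.0824 with no filter on low counts) and not called in the Atf4 line (0.05, adjusted p = 0.43), and the Atf lines differed from each other (0.20, adjusted p = 0.00263). Azin2 and Oaz3 were not called in either line, with log2 fold changes of 0.01 and 0.14 in the Atf3 line and 0.08 and -0.13 in the Atf4 line.

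Genes that supply ornithine and arginine held the largest change of the lists. Slc7a1, an importer of arginine and other cationic amino acids, stood at 15.6, 18.4, 18.8, 17.9 and 17.0 CPM in control replicates 1 to 5, at 223, 192, 262, 211 and 234 CPM in Atf3 replicates and at 84.0, 102, 123, 150 and 231 CPM in Atf4 replicates. Every Atf library lay far above control, and Atf4 replicate 5 lay within the Atf3 range. Its log2 fold change was 3.68 ± 0.25 in the Atf3 line (12.8-fold, edgeR adjusted p = 1.5e-08) and 2.98 ± 0.24 in the Atf4 line (7.87-fold, adjusted p = 2.0e-07). The Atf4 line lay below the Atf3 line (-0.70, edgeR adjusted p = 0.0202). That call was lost without Atf4 replicate 2 (-0.61, adjusted p = 0.0516) and when only these 2 lines were fitted (-0.68, adjusted p = 0.0531). Slc25a15, the carrier that exchanges ornithine across the inner mitochondrial membrane, was also higher in both lines (0.75 and 0.63, edgeR adjusted p = 3.5e-11 and 1.0e-09). Oat, which interconverts ornithine and glutamate semialdehyde, was higher by 0.14 and 0.22 (edgeR adjusted p = 0.012 and 3.2e-04), with no call in the Atf3 line under upper-quartile scaling (0.019), plain totals (0.001) or a filter at 1 CPM (0.064), or without control replicate 2 (adjusted p = 0.0609) or 3 (adjusted p = 0.0739). Arg2, an arginase, was near the detection limit at 0.346 CPM in control, 0.299 in Atf3 and 0.200 in Atf4 libraries, and its call as lower in the Atf4 line (-0.78, edgeR adjusted p = 0.0251) ended without control replicate 5 (adjusted p = 0.0642) or Atf4 replicate 5 (adjusted p = 0.0589) and with no filter on low counts (adjusted p = 0.0534).

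Among 7 tested genes of S-adenosylmethionine supply and methylthioadenosine salvage, 5 (Atf3) and 4 (Atf4) were called higher against control and none lower, where 36.8% and 31.8% of all genes tested were called higher and 36.3% and 29.6% lower. Mtap, which splits the methylthioadenosine that Srm and Sms release, rose from 26.2 to 82.1 CPM in the Atf3 line (log2 fold change 1.65, edgeR adjusted p = 2.9e-11) and to 57.1 CPM in the Atf4 line (1.12, adjusted p = 7.9e-09). Mri1, the isomerase of the next step, was higher by 0.99 and 0.55 (edgeR adjusted p = 6.9e-12 and 9.4e-08), and Enoph1, later in the same route, by 0.64 and 0.37 (adjusted p = 2.6e-10 and 1.2e-06). Apip and Adi1, which act between and after them, were not called, with values of 0.03 and -0.06 in the Atf3 line and 0.08 and 0.06 in the Atf4 line. Adi1 was called lower in the Atf3 line under upper-quartile scaling (-0.18), plain totals (-0.20) and a filter at 1 CPM (-0.13), and Apip higher in the Atf4 line without Atf4 replicate 5 (adjusted p = 0.0456). Mat2a, the synthetase of S-adenosylmethionine outside the liver, rose from 225 to 374 and 298 CPM (0.73 and 0.40, edgeR adjusted p = 3.6e-12 and 5.0e-08). Its regulatory partner Mat2b was higher in the Atf3 line (0.19, edgeR adjusted p = 5.9e-05, not called with plain totals at 0.05 or upper-quartile scaling at 0.068) and not called in the Atf4 line (0.03, adjusted p = 0.4).

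The hypusine pathway uses spermidine to modify the translation factor eIF5A, and all 4 of its listed genes were called higher in both lines, where 36.8% (Atf3) and 31.8% (Atf4) of all genes tested were. Eif5a, which encodes that factor, rose from 405 CPM to 828 in the Atf3 line (log2 fold change 1.03, edgeR adjusted p = 1.4e-14) and 666 in the Atf4 line (0.72, adjusted p = 4.9e-12). Dhps, the enzyme that transfers the spermidine part, was higher by 0.49 and 0.28 (edgeR adjusted p = 1.4e-09 and 7.0e-06), and Dohh, which completes hypusine, by 0.67 and 0.34 (adjusted p = 5.4e-09 and 7.5e-05). Eif5a2, a second eIF5A gene, was higher by 0.37 and 0.33 (edgeR adjusted p = 1.4e-06 and 8.1e-06). Between the Atf lines Eif5a, Dhps and Dohh were lower in the Atf4 line and Eif5a2 was not called (-0.04, edgeR adjusted p = 0.592).

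Of 5 listed genes for polyamine transport, 2 were called higher and 1 lower in each Atf line. Of all genes tested, 36.8% (Atf3) and 31.8% (Atf4) were called higher and 36.3% and 29.6% lower, 73.1% and 61.4% in either direction. Atp13a3, linked to polyamine uptake, rose from 126 CPM to 220 in Atf3 and 185 in Atf4 libraries (0.80 and 0.55, edgeR adjusted p = 3.6e-06 and 2.1e-04). Atp13a2, which releases polyamines from the lysosome, fell from 137 to 91.5 and 114 CPM (-0.58 and -0.26, edgeR adjusted p = 5.9e-08 and 9.8e-04). Slc3a2, the heavy chain of several amino acid transporters that has also been tied to polyamine export, rose from 338 to 539 and 538 CPM (0.67 in both, edgeR adjusted p = 2.4e-11 and 6.4e-11). Its log2 difference between the Atf lines was within -0.09 to 0.09 (95% interval). Atp13a4 was not called against control, and was near the detection limit at 0.225 CPM in control, 0.293 in Atf3 and 0.187 in Atf4 libraries. Slc18b1 was called lower in the Atf3 line only with plain totals (-0.18, edgeR adjusted p = 0.00727) and upper-quartile scaling (-0.17, adjusted p = 0.0146).

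Myc, a transcription factor known to act on Odc1, was higher in the Atf3 line and not in the Atf4 line. It stood at 38.5, 91.3, 69.5, 66.4 and 95.7 CPM in control replicates 1 to 5, at 170, 130, 157, 131 and 116 CPM in Atf3 replicates and at 39.8, 53.1, 52.0, 55.6 and 79.0 CPM in Atf4 replicates. Every Atf3 library lay above every other library, while the Atf4 and control lines overlapped. The log2 fold change was 0.96 ± 0.24 SE in the Atf3 line (edgeR adjusted p = 0.00247) and -0.37 ± 0.24 in the Atf4 line (adjusted p = 0.193), and -1.33 between the Atf lines (edgeR adjusted p = 6.4e-04). Without control replicate 1, its lowest library, Myc was called lower in the Atf4 line (-0.54, adjusted p = 0.0274). Odc1 and the other synthesis genes were called higher in the Atf4 line, and Myc was not. Whether Myc had a part in the levels of these genes was not tested. Mycn, a related factor, was low at 0.415, 0.215 and 0.248 CPM and was called lower in both lines (-0.95 and -0.74, edgeR adjusted p = 0.00168 and 0.0103).

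**Figure D4:**
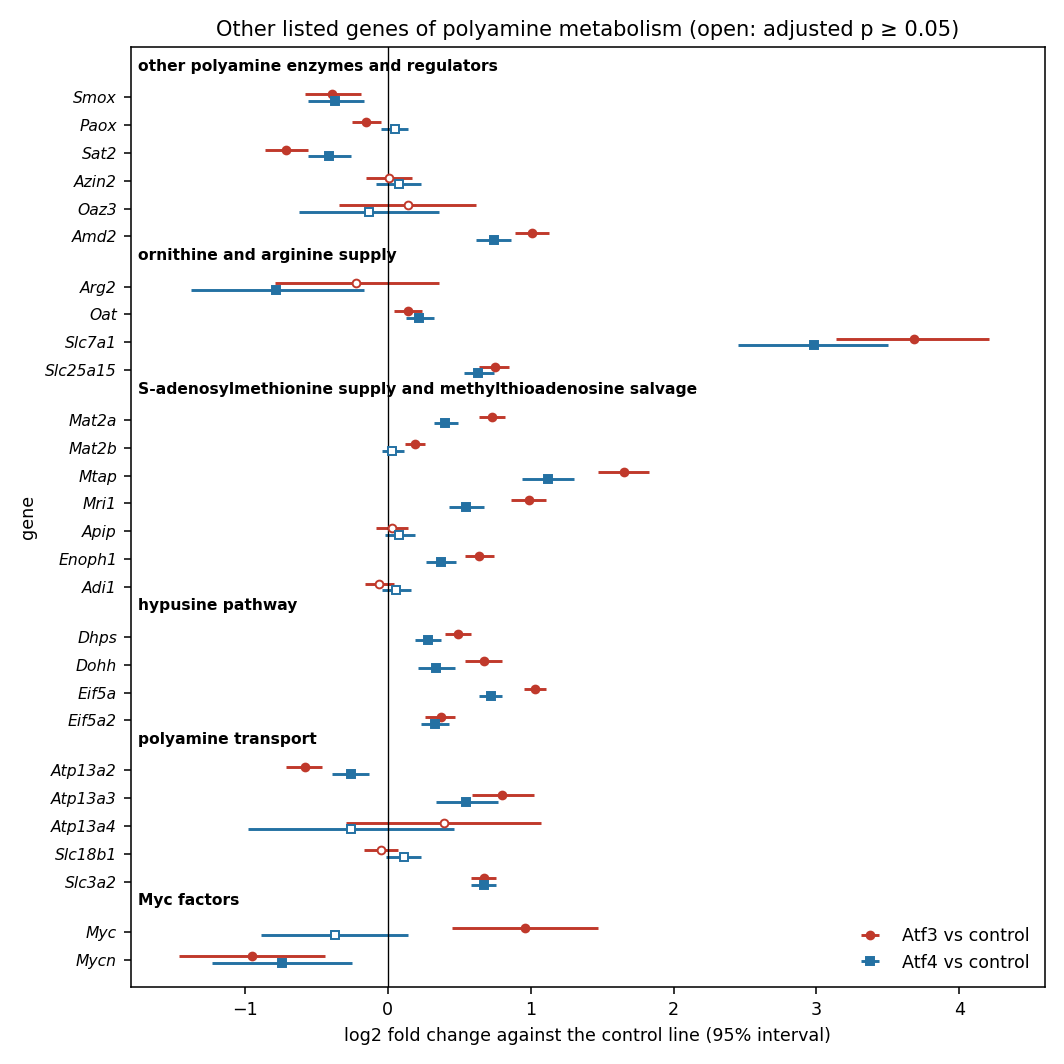
Log2 fold change against the control line (horizontal axis) with its 95% interval for the 28 tested genes of the 6 lists, in the Atf3 line (circles) and the Atf4 line (squares); filled symbols mark an adjusted p under 0.05. Slc7a1 lies farthest to the right at 3.68 and 2.98, all 4 hypusine genes lie to the right of 0, and Myc lies on opposite sides of 0, at 0.96 and -0.37.

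RefSeq start sites on GRCm38.p6 were matched by symbol for 6 of the 8 genes, with 7 windows of 250 bases before to 50 after a start, and Srm and Azin1 are named only. Letters searched on both strands were CACGTG (the E-box that Myc binds, among others), TGACGTCA (the cAMP response element, CRE), TGANTCA (the AP-1 site) and TGATGNAA (the composite C/EBP-ATF site). The only match was a CACGTG in a window of Sms, 196 to 191 bases before the start, a motif held by 7.15% of all 32851 promoters in the table. TGACGTCA was held by 1.79%, TGANTCA by 7.81% and TGATGNAA by 3.97% of all promoters. A shorter motif, TGACG, which forms part of TGACGTCA, was added after the data were seen. It lay in Amd1, Odc1 and, at 2 places, Oaz1, and is held by 20.8% of all promoters. Stretches upstream of the RefSeq start are shown for 4 genes, Odc1, Amd1 and Sms, which rose, and Sat1, which fell, with matches in capitals (CGTCA is TGACG on the other strand). They cover chr12:17544623-17544798 (plus strand, with the 5 bases in capitals lying just inside the annotated gene), chr10:40302189-40302438 (minus), chrX:157492288-157492537 (minus) and chrX:155216450-155216699 (minus).
Odc1: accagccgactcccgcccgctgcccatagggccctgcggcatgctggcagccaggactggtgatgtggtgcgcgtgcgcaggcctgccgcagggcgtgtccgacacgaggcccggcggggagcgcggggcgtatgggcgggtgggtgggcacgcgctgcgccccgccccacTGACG
Amd1: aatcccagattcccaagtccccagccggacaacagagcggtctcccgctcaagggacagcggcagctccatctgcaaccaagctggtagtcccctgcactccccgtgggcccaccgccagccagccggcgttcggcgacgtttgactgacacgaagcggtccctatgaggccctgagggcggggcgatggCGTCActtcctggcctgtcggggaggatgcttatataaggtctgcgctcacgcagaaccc
Sms: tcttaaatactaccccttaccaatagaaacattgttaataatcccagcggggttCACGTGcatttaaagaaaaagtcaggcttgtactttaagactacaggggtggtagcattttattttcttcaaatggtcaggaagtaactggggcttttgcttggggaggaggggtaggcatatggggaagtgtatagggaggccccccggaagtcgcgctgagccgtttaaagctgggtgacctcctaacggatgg
Sat1: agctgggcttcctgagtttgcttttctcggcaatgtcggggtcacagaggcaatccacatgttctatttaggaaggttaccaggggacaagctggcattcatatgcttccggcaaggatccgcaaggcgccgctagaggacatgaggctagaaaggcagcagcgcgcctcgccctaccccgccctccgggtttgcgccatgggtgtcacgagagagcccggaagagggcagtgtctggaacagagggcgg
The Odc1 stretch has a GC content of 76.7%, Amd1 of 64.4%, Sat1 of 59.6% and Sms of 47.2%. TGACG occurred both in genes that rose in the Atf lines and in Oaz1, whose libraries overlapped between the lines. The windows of Sat1 and Oaz2 and the other window of Sms held none of the motifs. A match is a run of letters and not a measured binding site. Sequence outside these windows was not searched, so the lack of a match covers these windows only.

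Across the 15 libraries, the genes whose log2 CPM followed Odc1 most closely among 8459 genes at or above a mean log2 CPM of 4 were Cnot9 and Prpf19 (Pearson r = 0.998) and Ifitm3 (r = 0.997). For Srm they were Impdh2 (r = 0.999), Pa2g4 and Hnrnpab (r = 0.998), for Sms Pa2g4, St3gal4 and Set (r = 0.997), for Amd1 Hspd1 and Naa50 (r = 0.997) and Ranbp1 (r = 0.996), and for Azin1 Ipo7 (r = 0.997), Ndufaf4 and Dhx15 (r = 0.996). Such values are set mostly by the step between the lines, and 25.7% to 28.6% of the genes searched had r over 0.9 with each of these 5 genes. Sat1 was followed by Cybc1 (r = 0.965), Ypel5 (r = 0.962) and Ppp2r3c (r = 0.960), with 4.79% of genes over 0.9. Oaz1 was followed by Naa38 (r = 0.946), Sgta (r = 0.938) and its own pseudogene Oaz1-ps (r = 0.928), with 0.213% over 0.9, and Oaz2 by H2-T22 (r = 0.844), Tmem101 (r = 0.841) and Tmem106c (r = 0.831), with none over 0.9.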

How the data were processed

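RNA of 15 libraries, 5 for each of 3 lines, was sequenced. Per the labels' protocols, the NEBNext Ultra RNA kit was used, an unstranded method, with paired reads from a NovaSeq instrument. The authors deposited a table of raw counts, whole numbers per gene with no normalization. Per the submitters' processing notes, STAR, edgeR and mm10 were used. Their versions, how reads were assigned to genes, whether strand was used and which annotation was counted are not given in the sources used. Titles gave group and replicate number. Symbols and coordinates came from GENCODE M21 (GRCm38), which matched 52083 of 55416 identifiers.

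Totals were 53.7 to 69.6 M counts. Within each line every pair of libraries differed beyond sampling noise (chi-square over its degrees of freedom 5.47 to 53.4), and each counted as 1 sample. Labels name no batch or date. In R 4.3.3, counts were scaled by TMM, filtered with filterByExpr (18244 genes of 35525 with any count) and fitted with edgeR 4.0.16 (quasi-likelihood, robust) over all 15 libraries with 1 coefficient per line. Benjamini-Hochberg adjustment ran across the tested genes, and an adjusted p under 0.05 was called. Lines overlap unless every library of one lies above every library of the other. Intervals are at 95%.

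The genes, the lists and the rule for named genes (the 8 genes, every gene of 6 lists, Atf3, Atf4 and the 3 genes most correlated with each of the 8) were chosen with earlier results of these data known. Alternatives were DESeq2 1.42.0, limma-voom (limma 3.58.1), other scalings and filters, only the compared lines, a replicate block, leaving out each library, and counts summed with near-identical copies. A further 4 were added after seeing the data: leaving out control replicates 4 and 5 together, edgeR without robust estimation, copies of Sms, Oaz2, Sat1 and Srm, and lengths of the longest coding transcript. The fits were tested on simulated counts. A planned comparison of protein sequences was not run.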

Additional observations from a re-analysis of the deposited data

Results flagged for a closer look

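A single value among the listed genes stood apart from the other libraries of its line. Slc25a15, the mitochondrial ornithine carrier, was at 34.4 CPM in Atf4 replicate 1, while the other 4 libraries of that line held 37.7 to 38.9 CPM, a gap to the nearest library that took up 0.738 of the whole range of the line. It was 1 of 114 groups of 5 libraries examined, and none of the 24 groups of the 8 polyamine genes stood out in this way. Chance flags about 1 group in 20. Atf4 replicate 1 also held the lowest Srm (56.9 CPM), Amd1 (105 CPM) and Azin1 (159 CPM) of its line.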

How the results depend on the processing

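Of 645 values of the 8 genes under alternatives, 610 kept their direction and side of the threshold, as did 2278 of 2328 values of the other listed genes. Odc1, Amd1, Srm, Sms, Sat1 and Azin1 kept their calls against control in all. Oaz1 in the Atf3 line reversed to -0.004 under upper-quartile scaling and -0.022 with plain totals. The number of the 8 called lower in the Atf3 line, 2 in the report, was 1 without a filter on low counts, under the replicate block, without robust estimation and without control replicates 4 and 5 together, and 1 to 2 with each library left out. In the Atf4 line it was 2 instead of 1 under upper-quartile scaling and with a filter at 1 CPM. The number called higher in the Atf4 than in the Atf3 line, 0 in the report, was 2 under upper-quartile scaling and plain totals, 1 with a filter at 1 CPM, and 0 to 1 with each library left out. Over all genes, plain totals gave 6165 higher and 2361 lower in that comparison, against 3553 and 4342. The cause was not tested. Per kilobase of the longest coding transcript, the ratio of Odc1 to antizymes was 0.411, 0.600 and 0.569 in the control, Atf3 and Atf4 lines and that of Srm to Sms 1.45, 4.46 and 3.29, since the lengths differ. Same-numbered libraries did not deviate together (r from -0.0791 to 0.0985 over 15 pairs, none over 0.1), and 0 of 15 libraries correlated best with their own number. With the replicate block, Oaz2 in the Atf3 line was -0.079 with an edgeR adjusted p of 0.074, and the other calls of the 8 genes were unchanged. Counts of at least 967 per library mean that depth was not the main limit.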

Other observations

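Added together per kilobase of merged exons, the 8 polyamine genes shared their summed level differently in the 3 lines. Oaz1 made up 35.9% ± 0.581 of it in control, 25.9% ± 1.06 in Atf3 and 28.7% ± 1.95 in Atf4 libraries (SD, n = 5), and Oaz2 13.9%, 8.76% and 10.2%. Srm went from 3.65% ± 0.228 to 15.6% ± 1.27 and 10.9% ± 1.67, while Odc1, at 28.9%, 29.6% and 31.3%, kept a similar share. These shares depend on the length chosen for each gene, and no test was run on them.

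Atf4 replicate 5 lay closest to the Atf3 line for 17 of the 20 genes, among the 8 and the other listed genes, that were called between the Atf lines. The share over all genes called is not given here. Over genes at large, the pairs of this library with Atf4 replicates 1, 2 and 3 differed most of all pairs within a line. Their chi-square over its degrees of freedom was 53.4, 33 and 26.3. The pair of Atf4 replicates 4 and 5 was at 11.7, and that of Atf4 replicates 1 and 4 at 24.5. The spread within the Atf4 line thus reached beyond the polyamine genes and did not rest on replicate 5 alone. Atf4 replicate 5 held the highest Srm (89.6 CPM), Azin1 (196 CPM), Slc7a1 (231 CPM) and Myc (79.0 CPM) of its line and the lowest Smox (102 CPM) and Oaz1 (277 CPM). Atf4 itself was also highest there, at 188 CPM, with 128, 147, 150 and 154 CPM in Atf4 replicates 1 to 4.

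Within lines, after the mean of each line was removed, log2 levels of Amd1 went with those of Azin1 (r = 0.77) and Sms (r = 0.73) over the 15 libraries. Sms went with Azin1 (r = 0.75) and Srm (r = 0.71), and Oaz1 with Oaz2 (r = 0.70). The lowest value was that of Azin1 with Oaz1 (r = -0.65). Values of Odc1 were 0.44 with Srm, 0.35 with Oaz1, 0.34 with Oaz2, 0.04 with Azin1, -0.00 with Sms, -0.08 with Sat1 and -0.17 with Amd1. These are descriptions over 5 libraries in each of 3 lines that share their depth and scaling.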
